A study of Mus musculus with 6 samples.

Results

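The 8 genes described here encode complement proteins and a complement receptor: C1qa, C1qb, C1qc, C3, C4b, Cfb, Cfp and C3ar1. They were chosen by name, as every gene probe on the array whose gene name is 1 of these 8, which gave 9 probes for 8 of 34740 genes and lincRNA regions. The probes were read on 6 single-colour Agilent arrays, 1 array for each of 6 groups. All mice were C57BL/6 by label, and were either TIARP+/+ (wild type, WT) or TIARP-/- (knockout, KO). TIARP is the protein of Steap4, a metalloreductase of cell membranes. Each genotype had 1 array of peritoneal macrophages collected 3 days after thioglycollate, which draws cells into the peritoneal cavity, and 1 array of such macrophages kept with TNFα for 24 h. It also had 1 array of neutrophils, taken from spleen on magnetic beads through their Ly6G surface protein. The labels number 3 mice for every array, and the labels do not say whether their RNA was pooled. They also do not give the time in culture of the macrophages without the TNF label, so time and TNF cannot be told apart.

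Complement is a cascade of blood proteins that marks microbes and dying cells for uptake. In its classical branch C1q, a bundle built from the A, B and C chains of C1qa, C1qb and C1qc, binds a target and leads to the cleavage of C4 and C2. In its alternative branch factor B (Cfb) joins cleaved C3 to form an enzyme that cleaves more C3, and properdin (Cfp) stabilises that enzyme. C3 is where the branches meet, and its small fragment C3a is sensed by the receptor C3ar1. Most complement protein in blood comes from the liver, while macrophages are a main source of C1q and neutrophils carry properdin in their granules.

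Levels are given on the log2 scale relative to the 75th percentile of the same array, so that 0 is the signal of that percentile. A gene passed the size rule when its arrays differed by at least 2-fold (1 on the log2 scale) and the brighter spot was marked by the files as well above background. Since every group had 1 array, no difference within a preparation had a replicate check or a p-value. A genotype difference pooled over the 3 preparations was not fitted. All 8 genes could be tested in every comparison, and 7 of them were well above background on all 6 arrays, while C3ar1 was not so on the WT neutrophil array. The probes of C1qc and C3 were spotted 10 times per array, and the SD between spots lay between 0.02 and 0.05 and between 0.02 and 0.03 on the log2 scale, which covers the array surface and not the mice. The other 6 genes had 1 spot each. Over all probes spotted at least 5 times the median SD between spots was 0.09.

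Promoters of C1qb, C1qc and C3 are shown because C1qb and C1qc moved together on these arrays and C3 often moved against them. Promoter sequences from RefSeq (build GRCm38.p6) matched 5 of the 8 genes, and C1qa, C4b and Cfb were not among them. Printed are the 250 bases before the annotated start, all on the minus strand: C1qb at chr4:136886201-136886450, C1qc at chr4:136892915-136893164 and C3 at chr17:57228137-57228386. Capitals mark matches on either strand to 1 of 6 motifs: C/EBP, PU.1, MAF, TATA, the interferon-stimulated response element and the NF-kB consensus. The letters searched for C/EBP, a family of factors active in myeloid cells, were TTGCNNAA. Those for PU.1, a factor that myeloid cells need to form, were GAGGAA. The core site of the MAF factors, a family of leucine zipper proteins, was searched as TGCTGA. The box that positions transcription at many promoters was searched as TATAAA.
C1qb: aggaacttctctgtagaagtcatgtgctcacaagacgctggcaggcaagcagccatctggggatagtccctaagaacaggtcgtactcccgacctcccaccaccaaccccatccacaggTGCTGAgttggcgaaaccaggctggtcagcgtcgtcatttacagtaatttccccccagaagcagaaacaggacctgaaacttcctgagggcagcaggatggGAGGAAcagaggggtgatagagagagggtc
C1qc: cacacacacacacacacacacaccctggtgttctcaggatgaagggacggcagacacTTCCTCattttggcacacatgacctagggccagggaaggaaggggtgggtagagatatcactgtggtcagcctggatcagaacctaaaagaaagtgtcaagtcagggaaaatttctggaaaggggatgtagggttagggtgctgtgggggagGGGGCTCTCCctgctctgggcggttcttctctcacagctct
C3: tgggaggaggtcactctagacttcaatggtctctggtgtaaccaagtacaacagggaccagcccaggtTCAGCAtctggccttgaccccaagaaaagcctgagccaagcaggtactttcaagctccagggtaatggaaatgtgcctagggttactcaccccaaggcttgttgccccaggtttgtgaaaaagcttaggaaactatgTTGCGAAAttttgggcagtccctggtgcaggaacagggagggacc

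No matches overlapped. C1qb held a PU.1 match that began 30 bases before the start and a MAF core site that began 131 bases before it. C1qc held a PU.1 match on the opposite strand, beginning 193 bases before the start, and an NF-kB match beginning 41 bases before it. C3 held a C/EBP match beginning 45 bases before the start and a MAF core site on the opposite strand. Of the other genes with a promoter, C3ar1 held a MAF core site and a TATA match, and Cfp held none of the 6. Among the same 250 bases of all 32851 promoters, 23.3% held the PU.1 letters, 16.1% the MAF core site, 12.4% TATA, 9.56% C/EBP, 3.90% NF-kB and 2.98% the interferon-response letters. These matches describe letters and are not measured binding.

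The probes themselves were 60 bases long, with coordinates on mm9 and all on the minus strand. No annotation of that build was used, so their place in an exon or UTR is not given. The C1q genes are neighbours on chromosome 4, where the probe of C1qa lies at 136452409 to 136452468, that of C1qb at 136436578 to 136436637 and that of C1qc at 136445766 to 136445825. On chromosome 17, Cfb is read at 34993502 to 34993858, C4b at 34865328 to 34865387 and C3 at 57343416 to 57343475 and again at 57343678 to 57343737. The Cfb coordinates span 357 bases for a 60-base probe. The probe of C3ar1 lies on chromosome 6 at 122798222 to 122798281 and that of Cfp on chromosome X at 20502742 to 20502801. The C4b probe also lists the transcript of C4a, a near copy of C4b, so its signal may hold both.

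**Figure D1:**
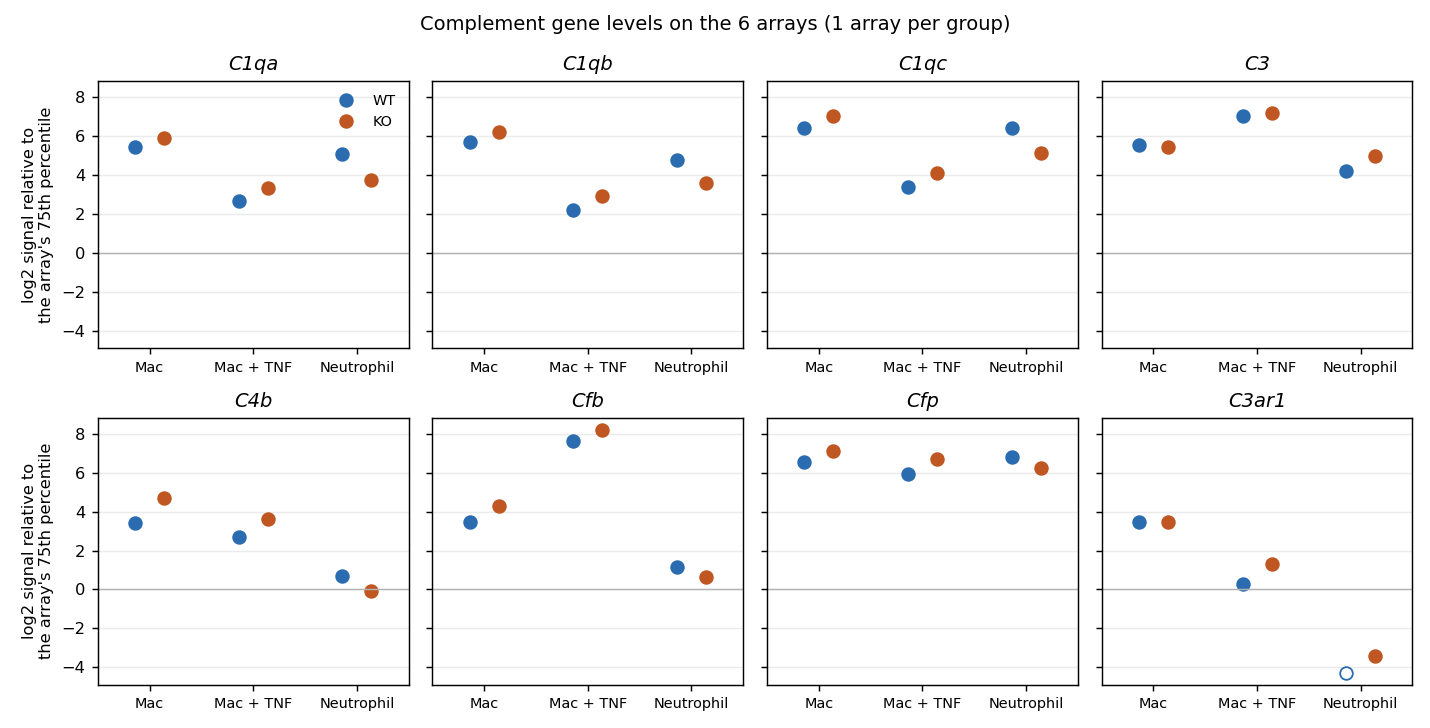
Level of each of the 8 complement genes on the 6 arrays, as log2 signal relative to the 75th percentile of the array (y axis), by cell preparation (x axis), with WT in blue and KO in orange. Each point is 1 array and there are no error bars. The open point, C3ar1 at -4.28 on the WT neutrophil array, was not well above background. The C1q chains are lowest on the macrophage arrays with TNF, where Cfb is highest.

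Among the classical components, the C1q chains were abundant in macrophages without the TNF label and fell with TNF in both genotypes. C1qa stood at 5.46 on the WT and 5.92 on the KO macrophage array, at 2.66 and 3.32 with TNF, and at 5.06 and 3.77 on the WT and KO neutrophil arrays. C1qb stood at 5.71 and 6.19 in WT and KO macrophages, at 2.18 and 2.91 with TNF and at 4.78 and 3.59 in neutrophils. C1qc stood at 6.42 and 7.03, then 3.39 and 4.11 with TNF, and 6.39 and 5.13 in neutrophils. Every chain was highest on the KO macrophage array without TNF and lowest on the WT macrophage array with TNF. Over the 6 arrays the levels of the chains followed each other, with Pearson's r between 0.977 and 0.995 for the 3 pairs, a description over 6 arrays of which 4 are macrophages.

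C4b encodes complement C4, which C1s cleaves after C1q has bound. It stood at 3.40 in WT and 4.73 in KO macrophages, at 2.70 and 3.60 with TNF, and at 0.71 and -0.08 in WT and KO neutrophils. The 4 macrophage arrays were all above both neutrophil arrays, and KO was above WT in both macrophage pairs and below it in neutrophils.

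Of the alternative branch, Cfb had the widest range of the 7 genes that were measured on every array, 7.57 on the log2 scale. It stood at 3.46 and 4.31 in WT and KO macrophages, at 7.61 and 8.21 with TNF, and at 1.15 and 0.64 in neutrophils. Both arrays with TNF were above all others, and both neutrophil arrays were below all others. Cfp had the narrowest range of the 8, 1.15. Its levels were 6.56 and 7.11 in WT and KO macrophages, 5.95 and 6.72 with TNF, and 6.80 and 6.24 in neutrophils, so that the ranges of the 3 preparations overlapped.

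C3 and its receptor moved in opposite directions with TNF, while both were lower in WT neutrophils than in WT macrophages. C3 stood at 5.54 and 5.43 in WT and KO macrophages, at 7.01 and 7.20 with TNF, and at 4.19 and 5.00 in neutrophils. Its second probe, spotted once, gave 4.76 and 4.78, then 6.03 and 6.39, then 3.24 and 3.97, the same order of the 3 preparations. C3ar1 stood at 3.47 on both macrophage arrays without TNF, at 0.28 and 1.31 with TNF in WT and KO, and at -4.28 and -3.40 in neutrophils. The neutrophil arrays were at the edge of detection, with linear signals of 11.9 and 21.2.

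The next comparison set macrophages with TNF against those without the TNF label, where time in culture may differ too. Cfb rose 17.7-fold in WT and C3 rose 2.78-fold. In KO the rises were 14.9-fold and 3.39-fold. The C1q chains fell between 6.97-fold and 11.5-fold in WT and between 6.09-fold and 9.75-fold in KO, C1qb the most in each. C3ar1 fell 9.18-fold in WT and 4.46-fold in KO. C4b fell 2.18-fold in KO (log2 -1.12) and was at -0.71 in WT, and Cfp was at -0.61 and -0.39, neither past the rule. In WT, 2 of the 8 genes were higher and 4 lower by the rule, against 4.41% and 4.59% of all genes tested. In KO, 2 were higher and 5 lower, against 4.45% and 3.7%. The median log2 difference of the 8 genes was -1.75 in WT and -1.64 in KO, and over all genes tested it was 0.02 in both. For C3 the second probe gave 1.27 and 1.61. In the same comparison 4 of 10 macrophage markers fell and 1 rose in each genotype, and mesothelial and fibroblast markers fell in 4 of 11 (WT) and 6 of 11 (KO). Mature neutrophil markers rose in 3 of 10 in WT, and in KO 2 rose and 1 fell. Of the 6 red pulp macrophage genes 3 rose in each genotype, Spic among them (3.18 and 3.29), while 1 fell in WT and 2 in KO. The part of other cells or of cell state in the complement differences was not tested.

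**Figure D2:**
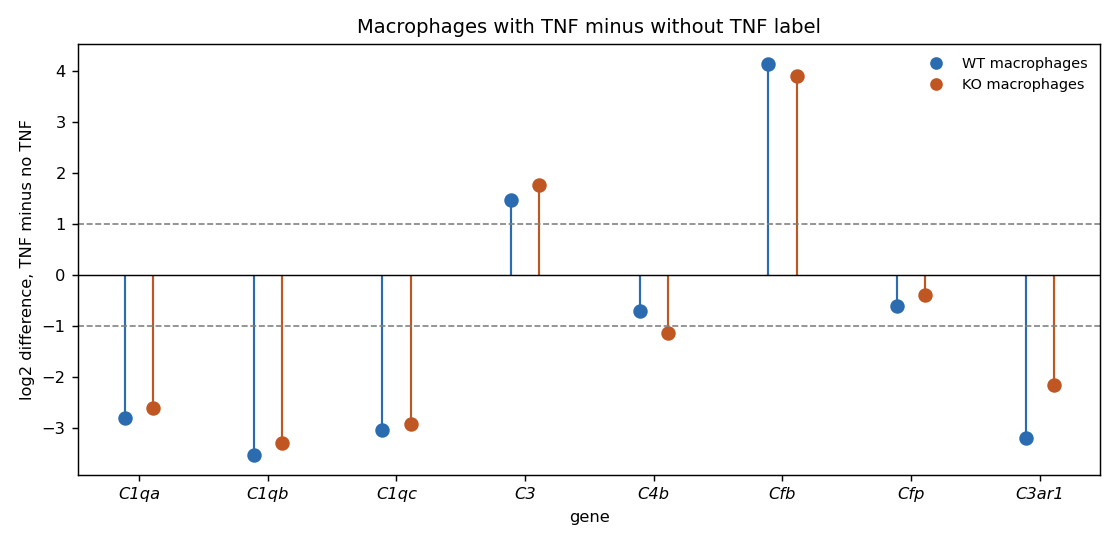
Log2 difference of each complement gene between macrophages with TNF and macrophages without the TNF label (y axis) for WT (blue) and KO (orange), 1 array per group. Dashed lines mark 2-fold. Cfb (4.15 and 3.90) and C3 (1.47 and 1.76) lie above the upper line in both genotypes, and the C1q chains and C3ar1 lie below the lower line.

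The sizes of these differences were set against each other between genotypes. C3ar1 fell less in KO, by 1.04 on the log2 scale, and was the 1 gene of the 8 past 2-fold in this comparison, where 1.5% of all genes tested were higher and 0.621% lower. It lay just past the rule, at 0.98 with normexp background correction and 0.89 with scaling to the spike-in probes. The other 7 genes differed by between -0.42 (C4b) and 0.29 (C3). The median over the 8 genes was 0.21, and over all genes tested it was -0.02.

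KO and WT were then compared in macrophages without the TNF label. C4b was higher on the KO array by 1.32 on the log2 scale, and was the 1 gene of the 8 past the rule, where 4.09% of all genes tested were higher and 1.55% lower. Cfb was at 0.85, Cfp at 0.54, C1qc at 0.61, C1qb at 0.49 and C1qa at 0.46, all higher on the KO array and none past 2-fold. C3 was at -0.10 by the probe with 10 spots and 0.02 by the other, and C3ar1 was at -0.00. The median of the 8 genes was 0.51, against 0.07 over all genes tested. Scaling to the E1A probes, which read spike-in RNA in an amount the labels do not give, lowered every difference of this comparison by 0.51, which put C4b at 0.81, Cfb at 0.34, C1qa at -0.05, C1qb at -0.03 and C1qc at 0.09. The direction of the C1qa and C1qb differences thus depended on the scaling, and that of C1qc did not.

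With TNF, all 8 genes were higher on the KO array than on the WT array, with a median of 0.72 against 0.05 over all genes tested. C3ar1 was 2.05-fold higher (log2 1.04) and was the 1 gene past the rule, where 6.97% of all genes tested were higher and 2.69% lower. Normexp background correction put it at 0.95, under the rule. C4b was at 0.90, Cfp at 0.76, C1qb at 0.73, C1qc at 0.72, C1qa at 0.66, Cfb at 0.60 and C3 at 0.19. Spike-in scaling lowered each of these by 0.66, which put C3ar1 at 0.37, C4b at 0.24, and C1qa, Cfb and C3 below 0 at -0.01, -0.07 and -0.47.

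Markers of some other cell types moved with genotype in the macrophage preparations. Without TNF, 6 of 10 mature neutrophil markers and 5 of 8 tested B-cell markers were higher on the KO array. With TNF these were 5 of 10 and 6 of 8. The neutrophil list medians were 1.47 and 0.81, and those of the B-cell list 1.75 and 1.63. The other neutrophil markers with TNF, not past the rule, lay between -0.74 (Mmp8) and 0.34 (Csf3r). Plasma cell, dendritic and red pulp macrophage lists had 0 past the rule in both comparisons. T and NK cell markers had 2 of 5 tested higher without TNF, and 2 higher and 1 lower of 6 with it. Of 3 tested erythroid markers 1 was higher without TNF and 1 lower with it. The summed level of the neutrophil markers, in multiples of the array's 75th percentile, was 173 and 451 on the WT and KO arrays without TNF and 239 and 494 with TNF. Mesothelial and fibroblast markers, from cells that also make C3 and C4, were lower on the KO array, 5 of 11 without TNF and 4 of 11 with TNF, and their summed level was 281 and 159, then 258 and 124. The macrophage markers held 0 of 10 past the rule without TNF and 1 of 10 with TNF, the Fc receptor gene Fcgr1, and all 10 were well above background on every array. The part of these cells in the complement differences was not tested, and in such bulk RNA fewer cells of a type and less RNA per cell cannot be told apart.

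**Figure D3:**
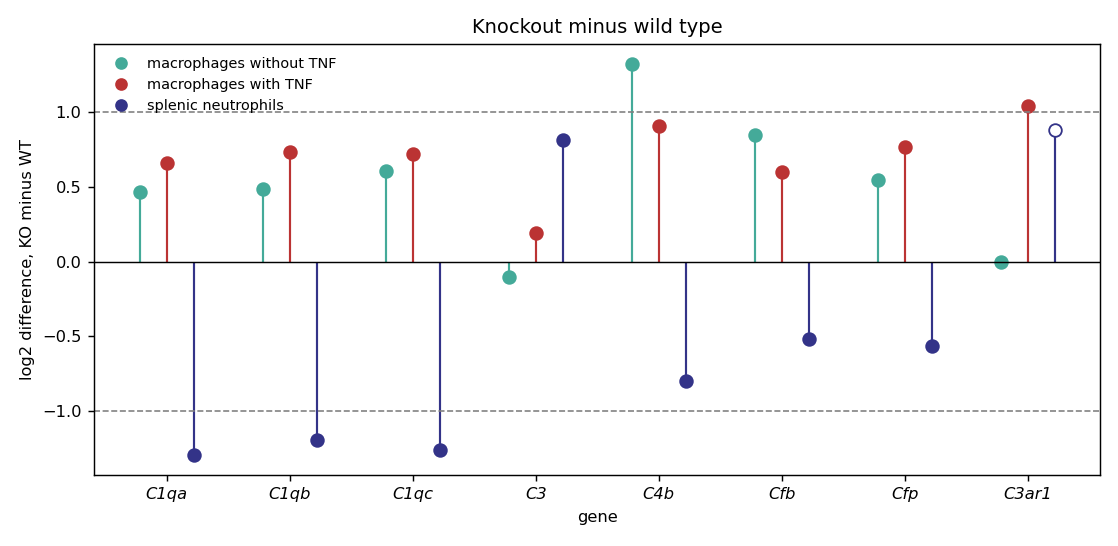
Log2 difference, KO minus WT, of each complement gene (y axis) in macrophages without TNF (green), macrophages with TNF (red) and splenic neutrophils (dark blue), 1 array per group. Dashed lines mark 2-fold and the open point is a gene not well above background on the WT array. The C1q chains, C4b, Cfb and Cfp lie above 0 in both macrophage comparisons and below 0 in neutrophils, although spike-in scaling put C1qa, C1qb or Cfb just below 0 in macrophages.

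In the splenic neutrophil preparation the C1q chains were lower on the KO array. C1qa was 2.45-fold lower (log2 -1.29), C1qc 2.39-fold lower (log2 -1.26) and C1qb 2.28-fold lower (log2 -1.19). These were 3 of the 8 genes past the rule, all lower, where 4.74% of all genes tested were lower and 3.65% higher. C4b was at -0.80, Cfp at -0.57 and Cfb at -0.52, none past 2-fold. C3 was higher on the KO array by both probes, at 0.81 and 0.73, under the rule. C3ar1, which stood just above background on the KO array and not on the WT array, was higher on the KO array by 0.88. This size is uncertain, since it was 0.22 with normexp background correction. The median of the 8 genes was -0.68 and that of all genes tested -0.01. Spike-in scaling lowered each difference by 0.36, which left C3 at 0.45 and put C4b past the rule at -1.15.

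Some genes that mark macrophages were lower in the same pair of arrays. Of 10 macrophage markers, 5 were lower and 0 higher by the rule, the lower ones including Adgre1 (-1.39), which encodes a surface receptor of macrophages, and the efferocytosis receptor Mertk (-1.22), with a list median of -0.97. The other 5 were not past the rule and lay between -0.82 (Csf1r) and 0.37 (Cd14), with Ctsd at -0.01. Of 6 genes of splenic red pulp macrophages, 4 were lower, with a median of -1.28, including Cd5l (-2.72), a protein secreted by tissue macrophages, and Spic (-1.29), the transcription factor of red pulp macrophages. The summed level of the macrophage list was 482 on the WT and 308 on the KO neutrophil array, and that of the red pulp list 494 and 207. All 16 of these genes were well above background on both neutrophil arrays. Mature neutrophil markers had 4 of 10 higher (median 0.95), erythroid markers 5 of 6 higher and 1 lower (median 1.66) and plasma cell markers 4 of 5 lower (median -1.71). B-cell markers had 0 of 9 past the rule, dendritic markers 0 of 5 tested, and T and NK cell markers 1 higher and 1 lower of 6 tested. The part of macrophages in the C1q difference was not tested.

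**Figure D4:**
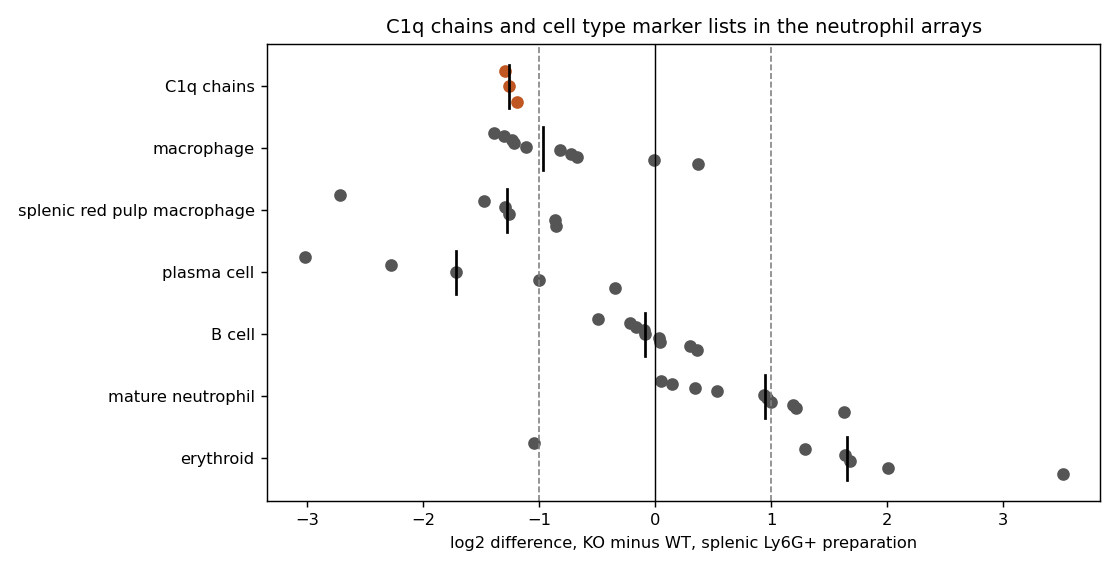
Log2 difference, KO minus WT, in the splenic Ly6G+ preparation (x axis) for the C1q chains (orange) and for the tested genes of 6 cell type marker lists (grey), 1 row per list, with the median of the row as a black bar. Each point is 1 gene on 1 array per genotype, and dashed lines mark 2-fold. The C1q chains, from -1.29 to -1.19, lie within the range of both macrophage lists and also of the plasma cell list.

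The WT neutrophil array was also set against the WT macrophage array without TNF. C3ar1 was 215-fold lower on the neutrophil array, where it was not well above background (log2 -7.75, and -5.34 with normexp background correction). C4b was at -2.69, Cfb at -2.31 and C3 at -1.35, so 4 of the 8 genes were lower and 0 higher by the rule. Over all genes tested, 17.9% were lower and 26.4% higher. C1qc (-0.03), C1qa (-0.40) and C1qb (-0.92) were not past the rule in a preparation selected on Ly6G, and Cfp was at 0.24. For KO the same subtraction gave -1.90, -2.16 and -2.60 for C1qc, C1qa and C1qb and -0.87 for Cfp. C3ar1, C4b and Cfb were at -6.87, -4.81 and -3.68 in KO, while C3 was at -0.44, under 2-fold. Spike-in scaling lowered each difference between the WT arrays by 1.41, which put all 8 genes past the rule and turned Cfp to -1.17. Quantile normalization put Cfp at -0.06. Mature neutrophil markers had 8 of 10 higher on the WT neutrophil array (median 4.95) and macrophage markers 7 of 10 lower (median -1.68). Markers of other splenic cells were higher there too: B-cell markers in 9 of 9 (median 6.40), erythroid markers in 5 of 5 tested (median 7.13) and genes of red pulp macrophages in 4 of 6 (median 4.30). T and NK cell markers were higher in 4 of 6 tested, dendritic markers in 3 of 5 tested, and plasma cell markers in 2 of 5 with 1 lower, while all 11 mesothelial and fibroblast markers were lower. The part of these cells in the complement levels of the neutrophil arrays was not tested.

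Of the other complement genes, 44 were on the array and 34 were well above background on at least 1 array. Among the enzymes of the classical branch, C1ra rose with TNF in both genotypes, by 1.05 in WT and 1.41 in KO. C1s1, C1s2 and C1rb rose in KO (1.57, 1.30 and 1.25) and were at 0.61, 0.57 and 0.82 in WT, not past the rule. C1s1 and C1s2 are close copies, as are C1ra and C1rb, so their probes may share signal. None of these 4 was past the rule between genotypes. In the neutrophil preparation C2, which C1s cleaves beside C4, and the ficolin gene Fcna, a lectin-branch sensor, were lower on the KO array (-1.36 and -1.21).

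The receptors and regulators split in direction with TNF. Vsig4, a receptor of tissue macrophages for C3 fragments, fell in both genotypes (-2.51 in WT and -2.87 in KO). The C5a receptor C5ar2 fell too (-2.47 and -2.01), as did Cd93 (-1.34 and -1.17). C5ar1 fell in KO (-1.26) and was at -0.99 in WT, and the regulator Cd55 fell in WT (-1.51) and was at -0.93 in KO. Itgax, a chain of a receptor for cleaved C3, rose in both (1.34 and 1.13). Over all 44 other complement genes, the classical enzymes included, 4 of 33 tested rose and 5 fell in WT, and 6 of 30 rose and 5 fell in KO, with medians of 0.25 and -0.04. Of all genes tested, 4.41% rose and 4.59% fell in WT, and 4.45% rose and 3.7% fell in KO. The receptors alone had 1 of 10 higher and 3 lower in WT and 1 higher and 4 lower in KO, with medians of -0.25 and -0.23, and the regulators had medians of -0.32 and -0.22. Among dim genes that passed through a bound were Cd59b (at least 1.64) in WT and Hc (at least 1.21), which encodes C5, in KO.

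Counts of the other complement genes past the rule are given here with the shares of all genes tested. Without TNF, 1 of 29 tested was higher on the KO array (Cd59b, at least 3.92-fold) and 1 lower (Clu, -1.09), with a median of 0.09. Of all genes tested, 4.09% were higher and 1.55% lower in that comparison. With TNF, 1 of 31 was higher (Cr2, 1.02) and 2 were lower, Vsig4 (-1.14) among them, with a median of 0.02. The shares of all genes were 6.97% higher and 2.69% lower. In neutrophils Cd93 was higher (1.64) and Vsig4 (at least 7.66-fold), C6 (-1.51), C2 and Fcna were lower among 30, with a median of -0.23. The shares of all genes were 3.65% higher and 4.74% lower there. Vsig4 lay below 0 in all 3 genotype comparisons, with -0.79 in macrophages without TNF. For the difference between the TNF differences, 0 of 27 tested passed, against 1.5% of all genes higher and 0.621% lower. Between the WT neutrophil and macrophage arrays, 11 of 29 were higher in neutrophils, among them the C3d receptor Cr2 (7.85), and 12 lower, among them Vsig4 (-5.17), with a median of -0.24. Of all genes tested, 26.4% were higher and 17.9% lower between these arrays.

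For each of the 8 genes, the 3 named genes with the most similar levels were sought among 6941 genes well above background on all arrays with an SD over arrays of at least 0.5. Pearson's r over the 6 arrays is given as a description, and the arrays share genotype, TNF and cell preparation. C1qa and C1qc were closest to Pls1 (0.990 and 0.999), which encodes an actin-bundling plastin, and both shared Pcsk1n (0.984 and 0.994), while C1qb was closest to Susd3 (0.984) and Plxnb3 (0.983). Plxnb3 was also close to C1qa (0.990), Hpgds, a prostaglandin D2 synthase, to C1qb (0.980) and Hfe, a regulator of iron uptake, to C1qc (0.990). Cfb was closest to 1810037I17Rik (1.000) and Sod2 (1.000), the mitochondrial superoxide dismutase, and then Gm15432 (0.999). C3 was closest to Acpp (0.993), the interleukin-1 receptor antagonist gene Il1rn (0.992) and 2010016I18Rik (0.992). C4b was closest to Mapre2 (0.998), Zfp655 (0.997) and Cyp2c38 (0.996), C3ar1 to Cetn4 (0.996), Scd4 (0.995) and the DNA ligase Lig1 (0.995), and Cfp to Gm826 (0.984), Zfp945 (0.958) and Patl2 (0.953). Among the 8 genes themselves, C3 and Cfb had an r of 0.954 and C4b and C3ar1 one of 0.939. C3 and the C1q chains ran against each other, with r between -0.766 and -0.625. All r values of C3ar1 include its neutrophil levels, -4.28 in WT and -3.40 in KO. Those levels were at the edge of detection, and the WT one was not well above background.

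The arrays as a whole had 75th percentile signals from 224 to 490 and between 56.6% and 62.2% of probes well above background, with 0 saturated spots. Steap4 signals were 175 and 83.1 in WT and KO macrophages, 49.2 and 12.8 with TNF and 48.8 and 36.0 in neutrophils, lower on the KO array each time. Which exons were deleted is unknown here, so this probe does not check the labels. Of all genes past the rule, the share that was higher on the KO array was 72.5% without TNF, 72.2% with TNF and 43.6% in neutrophils, and 21.1%, 13.7% and 16.1% with spike-in scaling. Quantile normalization gave 60.9% for KO against WT with TNF. The higher share was 54.6% for TNF in KO, 70.7% for the difference between the TNF differences and 59.6% for WT neutrophils against macrophages, and 36.6%, 46.7% and 13.5% with spike-in scaling.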

How the data were processed

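Each array was hybridised with Cy3-labelled cRNA made from total RNA of 1 group, per the labels. Spots were read by Agilent Feature Extraction, version 10.7.3.1, per the file headers and the submitters' processing notes. The deposited values are spot intensity on a linear scale, with a fitted spatial surface (not the local background) subtracted, detrended within the array and dim spots replaced by a surrogate, and with no scaling between arrays, per the file headers. All 6 arrays carry 1 slide's barcode, so slide and group are not confounded.

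Processed intensity was turned to log2, outlier spots were left out, spots of a probe were averaged and the array's 75th percentile was subtracted. Of several probes of a gene, the one with the highest mean level was used. Names came from RefSeq (GRCm38.p6, names only) by accession, symbol or unique synonym, otherwise from the file. A difference counted at 2-fold with the brighter spot well above background. Where the dimmer spot was not, the higher of its own signal and the array's lowest signal well above background was used, and the value is given as "at least". For C3ar1 its own signal was the higher, so its value is the plain difference and is not given as "at least". With 1 array per group, differences within a preparation were not tested, and no model pooled the preparations. The rule was tested on simulated data. The 8 genes, gene lists and marker lists were chosen with earlier results of these data known. Named were all 8 genes, other complement genes past the rule (some are not reported here) and the 3 most similar genes of each. Example markers and values of genes not past the rule were picked after their values were seen. Alternatives were quantile, median and spike-in scaling, normexp (limma 3.58.1, offset 50), the median over probes, no filter and a stricter filter.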

Additional observations from a re-analysis of the deposited data

Results flagged for a closer look

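C1qa, C1qb, C1qc, C4b, Cfb and Cfp differed in opposite directions between KO and WT in neutrophils and in macrophages, by at least 1 on the log2 scale, with 1 array on each side, and this difference was not tested. The KO-minus-WT difference in neutrophils minus that in macrophages without TNF was -1.76 for C1qa, -1.68 for C1qb, -1.86 for C1qc, -2.12 for C4b, -1.36 for Cfb and -1.11 for Cfp. Against macrophages with TNF it was -1.95 for C1qa, -1.92 for C1qb, -1.97 for C1qc, -1.70 for C4b, -1.11 for Cfb and -1.33 for Cfp. With spike-in scaling the directions were no longer opposite for C1qa and C1qb without TNF, nor for C1qa and Cfb with TNF, since these lay below 0 in macrophages as well. The same scaling took Cfp without TNF to -0.96 and Cfb with TNF to -0.81, under 1 in size. It also put 2 further genes in opposite directions against macrophages without TNF. C3 was at 0.45 in neutrophils and -0.61 in macrophages, 1.06 apart. C3ar1, not well above background on the WT neutrophil array, was at 0.52 and -0.52, 1.04 apart.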

How the results depend on the processing

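Of 392 recomputed differences of the 8 genes over 7 alternatives, 380 kept their side of the 2-fold rule, 6 lost it, 6 gained it and 0 called differences reversed. Signs changed in 8, of which 7 came with spike-in scaling. With spike-in scaling, 0 of the 8 genes passed between genotypes in macrophages lacking the TNF label, 0 with TNF and 0 for the difference between the TNF differences, and 8 passed for WT neutrophils against WT macrophages. With normexp background correction 0 passed for KO against WT with TNF and 0 for the difference between the TNF differences, where C3ar1 lay near the rule. By construction spike-in scaling shifts all genes of a comparison equally; which scaling is right was not tested. The fall of the C1q chains and C3ar1 and the rise of C3 and Cfb with TNF, and the lower C1q chains on the KO neutrophil array, kept direction and passed the rule under all 7 alternatives. C3ar1 in WT neutrophils against WT macrophages could not be called under the stricter filter. Counts over all genes moved more: for KO against WT without TNF, 1388 passed, and 438 with normexp, 3355 with no filter and 2126 with spike-in scaling. With TNF they were 2289, then 819, 4392 and 3997, and in neutrophils 2011, then 816 with normexp and 4213 with no filter. For TNF they were 2213 in WT (1071 and 4274) and 1949 in KO (963 and 3737). For the difference between the TNF differences they were 460 (124, 3859, and 957 with the median over probes). For WT neutrophils against macrophages they were 11112 (18863 with no filter and 16594 with spike-in scaling). No paired analysis was possible because the groups, with 1 array each, share no more than 1 replicate number. Pairing KO with WT by preparation, which would take the 3 preparations as replicates, was not fitted.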
